A study of Mus musculus with 4 samples.

Results

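The endoplasmic reticulum (ER)-associated degradation (ERAD) machinery was followed here through 10 genes, taken by symbol from the authors' deposited table of 23482 mouse genes. They encode the derlins Derl1, Derl2 and Derl3, the ubiquitin ligase Syvn1 with its partners Sel1l and Herpud1, and the glycan-handling proteins Edem1, Edem2, Edem3 and Os9. The 10 symbols were each found in 1 row. The study sequenced total RNA of quadriceps muscle from FVB/N mice aged 6 to 8 weeks. One group of 2 libraries, called transgenic here, came from mice overexpressing Thbs1, which encodes the secreted matricellular glycoprotein thrombospondin-1. The other group of 2 libraries, called control here, came from non-transgenic mice. The sources used here name neither the promoter that drives the transgene nor the animal behind each library. If both libraries of a group share an animal, p-values cover the spread between samples only, and that spread may be technical.

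ERAD clears misfolded proteins from the ER. Mannosidase-like EDEM proteins and the lectin OS-9 pick out misfolded glycoproteins, and SEL1L passes them to the membrane ubiquitin ligase SYVN1, also called HRD1. Derlins and HERPUD1 work in the same membrane complex, through which substrates leave the ER for extraction by the ATPase VCP and degradation by the proteasome. Several ERAD genes are known targets of the unfolded protein response, whose transcription factors ATF6 and XBP1 bind ER stress response elements together with the CCAAT-binding factor NF-Y. The question put to the data was how the mRNA of this machinery differed in muscle that overexpresses Thbs1.

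The promoters of 3 members hold the letters of such an element, and these 3 are shown for that reason. Promoter sequences, 250 bases before to 50 bases after each annotated start, were taken from RefSeq on GRCm38.p6, which had entries for 9 of the 10 members and not for Derl1. They were searched on both strands for the ER stress response element ERSE, which is CCAAT, any 9 bases and CCACG, and for its shorter form ERSE-II, which is ATTGG, any 1 base and CCACG and was defined on the human HERPUD1 promoter. They were also searched for the unfolded protein response element UPRE (TGACGTGG) and for the element CARE (TGATGNAA), which ATF4 binds. The UPRE contains the reverse complement of the CCACG that closes both ERSE forms, so their matches can overlap, but no match overlapped another in the members' promoters. Capitals mark the matches, and each promoter is written 5′ to 3′ on the strand of its gene.
Derl3, chr10:75893148-75893447, forward strand: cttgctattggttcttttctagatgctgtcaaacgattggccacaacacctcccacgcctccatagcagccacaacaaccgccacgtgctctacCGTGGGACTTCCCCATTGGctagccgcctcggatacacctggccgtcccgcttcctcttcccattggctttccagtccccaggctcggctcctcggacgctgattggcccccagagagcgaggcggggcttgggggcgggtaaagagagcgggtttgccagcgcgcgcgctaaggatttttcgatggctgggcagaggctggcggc
Syvn1, chr19:6046326-6046625, forward strand: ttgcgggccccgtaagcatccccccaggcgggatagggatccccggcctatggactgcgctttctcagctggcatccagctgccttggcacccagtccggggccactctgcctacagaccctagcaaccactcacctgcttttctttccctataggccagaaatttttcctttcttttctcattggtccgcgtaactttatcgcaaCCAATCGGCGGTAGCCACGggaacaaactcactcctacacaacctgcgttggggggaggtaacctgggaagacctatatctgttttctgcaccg
Herpud1, chr8:94386179-94386478, forward strand: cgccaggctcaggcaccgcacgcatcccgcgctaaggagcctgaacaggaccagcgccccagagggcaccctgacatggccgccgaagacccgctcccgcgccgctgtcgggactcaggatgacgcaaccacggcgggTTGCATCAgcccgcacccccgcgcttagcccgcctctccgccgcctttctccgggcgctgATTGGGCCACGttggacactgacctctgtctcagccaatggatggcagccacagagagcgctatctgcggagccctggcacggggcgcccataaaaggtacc

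Derl3 held 1 ERSE on the opposite strand, beginning 156 bases before the start, and Syvn1 held 1 on the strand of the gene, 44 bases before it. Read in the direction of the element, with the free positions in lower case, the match is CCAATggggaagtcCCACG in Derl3 and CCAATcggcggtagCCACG in Syvn1. Herpud1 held 1 ERSE-II, ATTGGgCCACG, 52 bases before the start, and 1 CARE on the opposite strand, 112 bases before it. None of these 4 motifs was found in the windows of Sel1l, Edem1, Edem2, Edem3, Os9 or Derl2. Among all 32851 promoters 0.119% held an ERSE, 0.0365% an ERSE-II, 0.676% a UPRE and 3.97% a CARE. Of 54 other ERAD genes with a promoter entry, 0 held either ERSE form, 3 held a UPRE (Txndc11, Ube2j1 and Vcp) and 2 held a CARE (Faf2 and Yod1). These are matches of letters, and binding was not measured here.

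All 4 libraries were deep, with 20053685 and 19813029 reads in genes in transgenic libraries 1 and 2, and 19380650 and 18815221 in control libraries 1 and 2. Thbs1 itself took 12.02% and 14.4% of the transgenic reads, against 0.00802% and 0.0114% of the control reads. The 9 muscle fibre markers checked summed to 28768 and 34744 RPKM in transgenic libraries and to 46579 and 50064 RPKM in control libraries. By limma 0 of the 9 were called, where 6.25% of all genes tested were called higher and 1.22% lower. At an unadjusted p under 0.05 1 was higher and 4 lower, against 20.4% and 7.46% of all genes. Limma-voom called 2 lower, where it called 4.92% of all genes lower. Myh1, a fast myosin heavy chain, went against the sum, at 1064 and 1249 RPKM in transgenic and 803 and 839 RPKM in control libraries. RPKM is a read count scaled to the authors' gene length in kilobases and to the library's total reads.

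All 10 members were higher in both transgenic libraries than in both control libraries, and 8 of the 10 passed the test. Among the 10015 genes tested 6.25% were called higher, 1.22% were called lower and 38.4% had both transgenic values above both controls. The test was limma on log2(RPKM + 1) with p-values adjusted over all genes tested and a threshold of 0.05. The log2 fold changes, transgenic minus control, ran from 0.76 to 4.54 with a median of 1.23, against 0.10 over all genes tested. All 10 passed the filter of at least 1 RPKM in at least 2 libraries. Derl3 did so only through its transgenic values, and of the other 9 members 7 were called, Edem1 among them. Edem1, at 1.46 and 0.782 RPKM in control libraries, also needed a transgenic value to pass. By limma-voom the same 8 members were called, where 5.38% of all genes were higher and 4.92% lower. With median-of-ratios scaling they were again the same 8, where 5% of all genes were higher and 2.47% lower. The split of all calls was thus 626 higher and 122 lower by limma, 501 and 247 with median-of-ratios scaling and 539 and 493 by limma-voom. The authors' deposited table gives 8 of the 10 an adjusted p under 0.05 and all 10 one under 0.1, higher in transgenic muscle, where its percentages over all its genes are 4.34% and 5.55%. That table rests on the same libraries and is no independent evidence. In bulk RNA, more RNA per cell and more cells of a type that expresses a gene cannot be told apart.

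**Figure D1:**
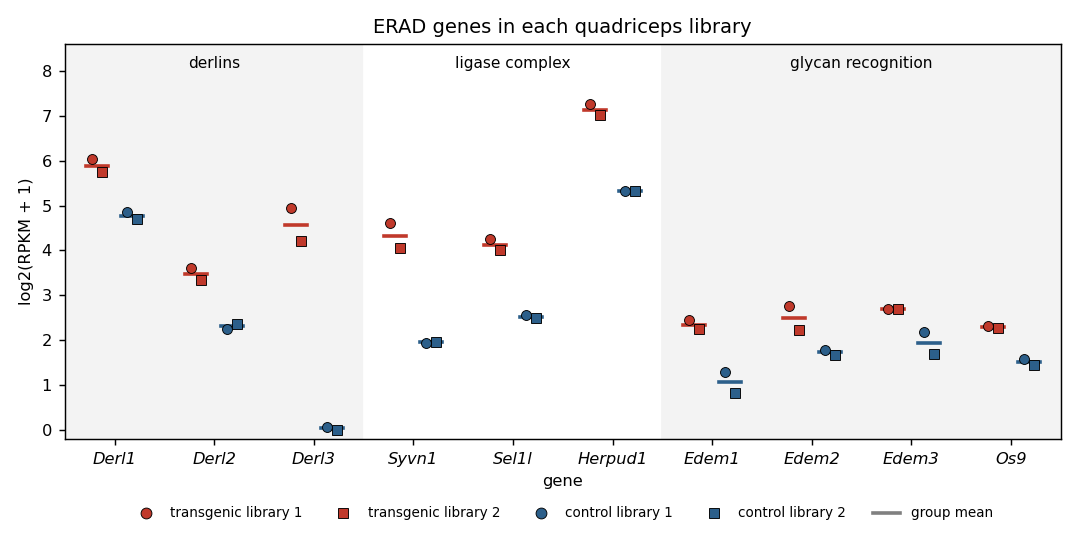
Level of each ERAD gene in each library on the log2(RPKM + 1) scale, with transgenic libraries in red, control libraries in blue and a bar at each group mean (n = 2 per group). For each of the 10 genes both red points lie above both blue points, with the widest gap for Derl3 and the narrowest for Edem2, Edem3 and Os9.

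The derlins are multi-pass ER membrane proteins related to rhomboid proteases. Derl3 (chr10:75893413-75895941, forward strand, on GRCm38 as all positions here) was at 29.9 and 17.4 RPKM in transgenic libraries 1 and 2, against 0.0509 and 0 RPKM in control libraries 1 and 2. Behind these values were 1215 and 698 reads in the transgenic libraries and 2 and 0 reads in the control libraries. Derl3 was thus close to undetected in control muscle, where 0 reads allow up to 0.0787 RPKM. The ratio of its summed reads per library read was 916, with an exact 95% interval of 253 to 7.57e+03 that covers counting error only. On the log2 scale it rose by 4.54 (SE 0.27, limma adjusted p of 0.0078, n = 2 per group), rank 3 of all genes tested.

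Derl1 (chr15:57869502-57892448, reverse strand), the most abundant derlin, had 64.7 and 52.4 RPKM in transgenic libraries and 27.8 and 25.2 RPKM in control libraries (log2 fold change 1.11, SE 0.18, limma adjusted p = 0.0312). Derl2 (chr11:71007164-71019841, reverse strand) had 11.2 and 9.17 RPKM in transgenic libraries and 3.79 and 4.13 RPKM in control libraries (log2 fold change 1.17, SE 0.16, limma adjusted p = 0.023). In mean RPKM Derl1 rose 2.21-fold and Derl2 2.57-fold, and for both genes the groups did not overlap. The exons of Derl2 share 231 bases with those of Mis12 on the opposite strand. Whether the counting used strand is not stated in the sources, so reads there cannot be told apart. Mis12 was low, at 2.41 and 2.40 RPKM in transgenic and 1.96 and 1.46 RPKM in control libraries.

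Levels of different genes need a common length. The lengths behind the authors' RPKM exceed the gene's whole span for 663 of 9474 tested genes matched to the GENCODE M21 annotation. For Syvn1 that length is 10257 bases, against a span of 7137 bases. Over the members the authors' length was 0.995 to 4.50 times the longest annotated transcript, with the lowest factor for Derl2 and the highest for Os9. Ratios of RPKM within a gene do not depend on it, but log2(RPKM + 1) fold changes do. With the longest-transcript lengths the log2 fold change was 5.12 for Derl3, 2.57 for Syvn1 and 0.99 for Os9, and the same 8 members were called. Levels between genes are therefore given below as reads per kilobase of the longest GENCODE transcript, scaled to library size as RPKM is.

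On that scale Derl3 made up 33.6% and 26.6% of the summed derlin level in transgenic libraries, against 0.206% and 0% in control libraries. The share of Derl1 was 58.2% and 64.3% in transgenic libraries, against 89.9% and 88.3% in control libraries. Derl2 held 8.17% and 9.11% in transgenic libraries and 9.92% and 11.7% in control libraries. The summed derlin level was 136.5 and 100.2 in transgenic libraries and 37.99 and 35.05 in control libraries. Derl3 was thus the lowest derlin in control muscle and ranked above Derl2, behind Derl1, in transgenic muscle.

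Syvn1, the catalytic ubiquitin ligase of the complex, had the second largest log2 fold change of the members. It lies at chr19:6046576-6053712 on the forward strand. Syvn1 was at 23.3 and 15.6 RPKM in transgenic libraries, from 4788 and 3169 reads, and at 2.84 and 2.91 RPKM in control libraries, from 564 and 562 reads. The control libraries lay close together and both transgenic libraries stood well above them (log2 fold change 2.37, SE 0.22, limma adjusted p = 0.0118, 6.76-fold in mean RPKM). Its mean was 19.4 ± 5.43 RPKM in transgenic and 2.87 ± 0.0530 RPKM in control libraries (SD, n = 2 each). At its 3′ end the exons of Syvn1 share 91 bases with those of Mrpl49 on the opposite strand, which was at 8.62 and 7.89 RPKM in transgenic and 9.99 and 8.88 RPKM in control libraries.

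Sel1l (chr12:91806043-91849157, reverse strand), the adaptor that ties substrates to the ligase, had 18.1 and 15.2 RPKM in transgenic libraries and 4.90 and 4.62 RPKM in control libraries (log2 fold change 1.61, SE 0.16, limma adjusted p = 0.0127). Herpud1 (chr8:94386438-94395377, forward strand), a membrane protein of the complex with a ubiquitin-like domain, had 152 and 128 RPKM in transgenic libraries and 39.1 and 38.9 RPKM in control libraries (log2 fold change 1.81, SE 0.17, limma adjusted p = 0.0119). Sel1l and Herpud1 rose by similar factors, 3.49-fold and 3.59-fold in mean RPKM. The level of Herpud1 over that of Sel1l, on the longest-transcript scale, was 4.85 and 4.89 in transgenic and 4.603 and 4.858 in control libraries, so these ratios overlapped between groups.

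The ratio of the ligase to its adaptor differed more. Syvn1 over Sel1l was 1.198 and 0.956 in transgenic libraries, against 0.538 and 0.585 in control libraries, on the longest-transcript scale. With the authors' lengths it was 1.29 and 1.03 in transgenic and 0.579 and 0.630 in control libraries. Both transgenic ratios lay above both control ratios on either scale. A two-sided exact permutation test gave p = 0.333, the smallest that 2 libraries against 2 allow, so this test could not pass the threshold.

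**Figure D2:**
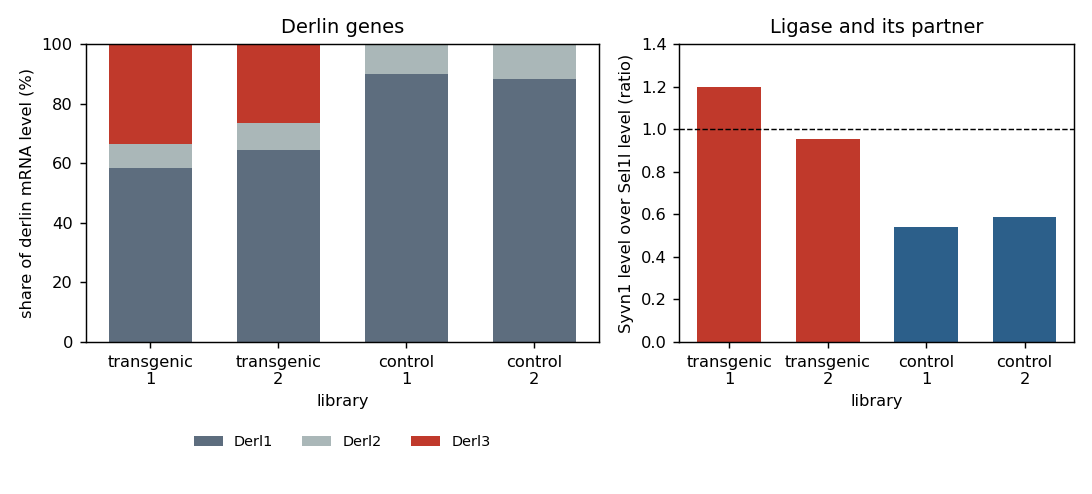
Left, share of each derlin gene in the summed derlin level of each library, in percent; right, level of Syvn1 over that of Sel1l in each library, with a dashed line at 1. Both use reads per kilobase of the longest GENCODE transcript: Derl3 takes 33.6% and 26.6% in transgenic libraries and is near 0 in control libraries, and the Syvn1 to Sel1l ratio is 1.198 and 0.956 in transgenic and 0.538 and 0.585 in control libraries.

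Of the glycan-handling members Edem1 and Os9 rose, while Edem2 and Edem3 did not pass the test. EDEM proteins promote trimming of mannose from misfolded glycoproteins, which marks them for ERAD. Edem1 (chr6:108828641-108859356, forward strand) had 4.48 and 3.74 RPKM in transgenic libraries, from 702 and 579 reads, and 1.46 and 0.782 RPKM in control libraries, from 222 and 115 reads (log2 fold change 1.28, SE 0.21, limma adjusted p = 0.0316). Its control libraries differed 1.87-fold from each other, less than its 3.66-fold difference between group means.

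Edem2 (chr2:155701677-155729475, reverse strand) had 5.76 and 3.68 RPKM in transgenic libraries and 2.46 and 2.18 RPKM in control libraries (log2 fold change 0.76, SE 0.22, limma adjusted p = 0.0941). Edem3 (chr1:151755371-151822051, forward strand) had 5.46 and 5.52 RPKM in transgenic libraries and 3.56 and 2.23 RPKM in control libraries (log2 fold change 0.76, SE 0.20, limma adjusted p = 0.0876). For Edem2 the transgenic libraries lay 1.57-fold apart and for Edem3 the control libraries lay 1.60-fold apart, against 2.04-fold and 1.90-fold between group means. The 95% intervals of their log2 fold changes were 0.22 to 1.31 and 0.24 to 1.28, unadjusted. Edem1 over Edem3 was 0.710 and 0.586 in transgenic libraries and 0.356 and 0.304 in control libraries on the longest-transcript scale, without overlap, and the exact permutation p was again the smallest possible, 0.333.

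Os9 (chr10:127095650-127121131, reverse strand), an ER lectin that reads trimmed mannose glycans and binds Sel1l, had 4.01 and 3.84 RPKM in transgenic libraries, from 949 and 898 reads. It had 2.001 and 1.73 RPKM in control libraries, from 458 and 385 reads (log2 fold change 0.78, SE 0.14, limma adjusted p = 0.0391). The log2 fold change of Os9 lay near those of Edem2 and Edem3. It passed the test with the narrower spread, and its interval was 0.43 to 1.14.

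**Figure D3:**
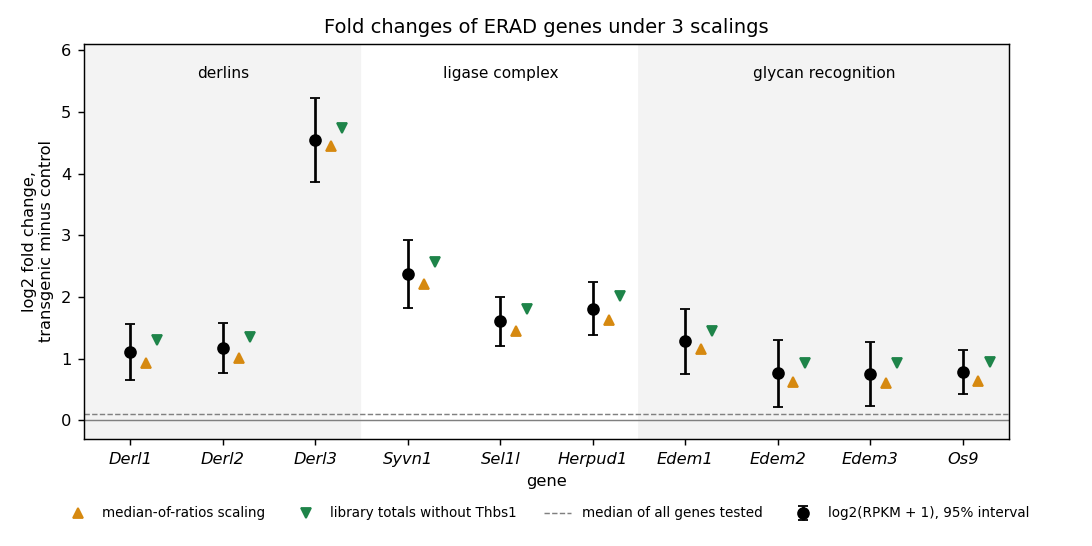
Log2 fold change of each ERAD gene, transgenic minus control, with its 95% interval from limma (black, n = 2 per group), and the same value with median-of-ratios scaling and with library totals that leave out Thbs1. All 10 genes lie above 0 and above the dashed median of all tested genes, 0.10, under the 3 scalings, with Derl3 at 4.54 and Edem3 at 0.76.

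In order of level per longest transcript, Herpud1 and Derl1 came first and second in each of the 4 libraries, at 237 and 79.5 in transgenic library 1 and at 61.0 and 34.1 in control library 1. In control libraries Sel1l, Os9 and Syvn1 followed, at 13.3, 8.996 and 7.13 in control library 1, and Edem1 and Derl3 came last, at 1.88 and 0.0781. In transgenic libraries Sel1l and Syvn1 exchanged places 3 and 4 between library 1 and library 2, so their order was not resolved, and Derl3 was at place 5 in both. Edem2 and Edem3 also exchanged places between transgenic libraries, and Derl2 and Edem3 between control libraries. The summed level of the 10 genes was 523 and 418 in transgenic libraries, against 139.9 and 131.6 in control libraries. Herpud1 alone made up 45.3% and 48.0% of it in transgenic libraries and 43.6% and 46.2% in control libraries.

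Transgenic library 1 lay above transgenic library 2 for 9 of the 10 members, the exception being Edem3, with ratios of 0.989 to 1.72. The order was the same for 8 of the 10 after scaling by median-of-ratios factors, which were 1.17 and 1.03 in transgenic libraries 1 and 2. Control library 1 likewise lay above control library 2 for 8 of the 10 members, and for 6 after that scaling. Between the transgenic libraries Thbs1 was in the other order, at 12900 RPKM in transgenic library 1 and 15411 RPKM in transgenic library 2. Transgenic library 1 also held more RNA of adipocyte markers, and the 4 checked summed to 378 RPKM in it and 31.6 in transgenic library 2, against 35.5 and 34.2 in control libraries. Without transgenic library 1 Derl2, Derl3, Syvn1, Sel1l and Herpud1 were called, 5 members, where 3.89% of all genes were called higher. Derl1, Edem1 and Os9 then lost their call, with adjusted p of 0.0722, 0.0539 and 0.128.

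The calls depended on the control libraries too. Without control library 1, 5 members were called, Derl3, Syvn1, Sel1l, Herpud1 and Edem1, where 3.52% of all genes were called higher. Without control library 2, limma called 0 of the 10, where it called 1 gene of all tested (0.00999%), and 9 of the 10 were higher at an unadjusted p under 0.05, as were 14.1% of all genes. Without transgenic library 2, Edem2 gained a call (adjusted p = 0.0454) and Os9 lost it, so that 8 were called, where 5.92% of all genes were called higher. These fits take the spread of the single remaining library from that of the other group. Os9 was called in none of the 4 fits that left out a library, with adjusted p of 0.0727 to 0.148. The log2 fold change stayed positive for all 10 members whichever library was left out, which adds nothing to the groups not overlapping. Of all members 4 were called with no filter on low values, Derl3, Syvn1, Sel1l and Herpud1, where 0.76% of all genes were called higher. Without Thbs1 in the library totals all 10 were called (14.6% of all genes). At an adjusted p under 0.1 all 10 were called (13%).

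Markers of some other cell types moved with these genes. Of 12 macrophage markers 10 were tested and 8 were called higher, where 6.25% of all genes were called higher. Cd68, which was called, and Adgre1, which was not, passed the filter only through their transgenic values. The list summed to 271 and 244 RPKM in transgenic libraries and to 84.8 and 54.2 RPKM in control libraries. Lyz2 made up most of it, at 172 and 155 RPKM in transgenic and 55.4 and 29.4 RPKM in control libraries. Of the 2 markers not tested, Cd163 overlapped between groups and Itgam was higher in both transgenic libraries. Derl3 is known as a gene of secretory cells such as plasma cells, so 11 B and plasma cell markers were read beside it. They summed to 22.7 and 17.4 RPKM in transgenic libraries and to 3.06 and 2.10 RPKM in control libraries. Most of that sum was Mzb1, which encodes an ER protein of B cells and plasma cells, at 16.8 and 12.9 RPKM in transgenic libraries and 0.594 and 0 RPKM in control libraries. Jchain, the joining chain of secreted antibody, was at 2.10 and 1.78 RPKM in transgenic and 0.499 and 0.123 RPKM in control libraries. Limma called 2 of the 3 tested markers higher, Mzb1 and Jchain, where 6.25% of all genes were called higher. Limma-voom called 1 of the 3, where 5.38% of all genes were called higher. Like Derl3, Mzb1 and Jchain passed the filter only through their transgenic values. The third tested marker, Sdc1, was at 2.92 and 1.97 RPKM in transgenic and 1.56 and 1.21 RPKM in control libraries. The other 8 of the 11 stayed under 1 RPKM in each library. Among these, Cd79b was at 0.317 and 0.508 RPKM in transgenic and 0.0273 and 0.0845 RPKM in control libraries, and Prdm1 was also higher in both transgenic libraries. Cd79a was at 0 in both transgenic libraries, and Ms4a1 was listed at 0 in all 4 libraries. Of 6 fibroblast markers 1 was called higher, where 6.25% of all genes were called higher. It was Lum, at 42.5 and 36.1 RPKM in transgenic and 13.7 and 8.62 RPKM in control libraries. Col3a1 was higher in both transgenic libraries but was not called, and Dcn, Dpt, Pdgfra and Col1a1 overlapped between groups. The list summed to 439 and 423 RPKM in transgenic and 352 and 184 RPKM in control libraries. The 5 endothelial markers summed to 34.2 and 20.2 RPKM in transgenic and 33.9 and 23.2 RPKM in control libraries, and 0 were called by limma, at an unadjusted p under 0.05 or by limma-voom. The part of macrophage, plasma cell or fibroblast RNA in the rise of the ERAD genes was not tested.

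The rest of the pathway was read from a list of 66 other ERAD genes in 4 roles, of which 61 passed the filter. Of these, 8 rose and 0 fell, where 6.25% of all genes rose. Their median log2 fold change was 0.19, against 0.10 over all genes, and it moved with the scaling, to 0.03 with median-of-ratios factors, 0.02 by limma-voom and 0.36 without Thbs1 in the totals. At an unadjusted p under 0.05, 18 were higher and 2 lower, against 20.4% and 7.46% of all genes, and limma-voom called 8 higher and 2 lower, Marchf6 and Svip. The calls lay in 2 of the 4 roles, among proteins that act in the ER lumen or its membrane. That was not tested as a difference between roles.

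Among 10 genes of glycan trimming and substrate delivery 3 rose. Dnajb9, an ER co-chaperone that brings substrates to ERAD, had 86.6 and 64.8 RPKM in transgenic libraries and 14.8 and 17.996 RPKM in control libraries (log2 fold change 2.13, SE 0.21, limma adjusted p = 0.0127). Uggt1, which reglucosylates glycoproteins that have not folded, had 9.80 and 10.7 RPKM in transgenic libraries and 3.69 and 2.92 RPKM in control libraries (log2 fold change 1.39, limma adjusted p = 0.0174). Erlec1, a lectin related to Os9, had 14.1 and 14.5 RPKM in transgenic libraries and 8.30 and 7.29 RPKM in control libraries (log2 fold change 0.80, limma adjusted p = 0.0414). The groups of these 3 genes did not overlap. The lowest log2 fold change of the role was that of Man1a2, a mannosidase, at 0.14 (limma adjusted p = 0.59).

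Among 17 tested genes of membrane extraction 5 rose. Selenos, listed under the older symbol Vimp and known to recruit the VCP ATPase to the membrane, had 55.5 and 52.8 RPKM in transgenic libraries and 21.6 and 25.1 RPKM in control libraries (log2 fold change 1.18, limma adjusted p = 0.0223). Hm13, the signal peptide peptidase, listed as H13, had 5.61 and 5.45 RPKM in transgenic libraries and 2.11 and 2.41 RPKM in control libraries (log2 fold change 1.01, limma adjusted p = 0.0235). Erlin2, Bcap31 and Ubxn4, all ER membrane proteins, had log2 fold changes of 0.97, 0.90 and 0.90 and limma adjusted p of 0.0313, 0.0363 and 0.0302. Vcp itself, which pulls ubiquitinated substrates out of the membrane, had 87.7 and 104.96 RPKM in transgenic libraries and 67.2 and 75.1 RPKM in control libraries (log2 fold change 0.43, limma adjusted p = 0.195), and was chosen for naming after its value was seen. The lowest log2 fold change was that of Svip, a small inhibitor of ERAD that binds VCP, at -0.68, with 2.02 and 2.29 RPKM in transgenic libraries and 3.68 and 4.45 RPKM in control libraries (limma adjusted p = 0.0634).

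By limma, 0 of 20 other ubiquitin enzymes and ligase partners and 0 of 14 tested cytosolic hand-off factors were called in either direction. Of all genes 6.25% were called higher and 1.22% lower. At an unadjusted p under 0.05, 3 of the 20 were higher and 1 lower, and 1 of the 14 was higher. The shares over all genes were then 20.4% higher and 7.46% lower. By limma-voom 0 of the 20 were higher and 1 lower, and 0 of the 14 were called. Over all genes limma-voom called 5.38% higher and 4.92% lower. The 20 ran from Marchf6, an ER ubiquitin ligase, at -0.61 (limma adjusted p = 0.0895) to Ube2g2, a ubiquitin-conjugating enzyme of ERAD, at 0.55 (limma adjusted p = 0.122). The 14 ran from Usp25, a deubiquitinase, at -0.40 to Get4, of the BAG6 complex, at 0.66, with limma adjusted p of 0.199 and 0.0661. Their medians were 0.15 and -0.08, and both turned sign or neared 0 with scaling: -0.0021 and -0.24 with median-of-ratios factors, 0.34 and 0.10 without Thbs1 in the library totals. The median of all genes tested moved likewise, to -0.04 and 0.26.

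**Figure D4:**
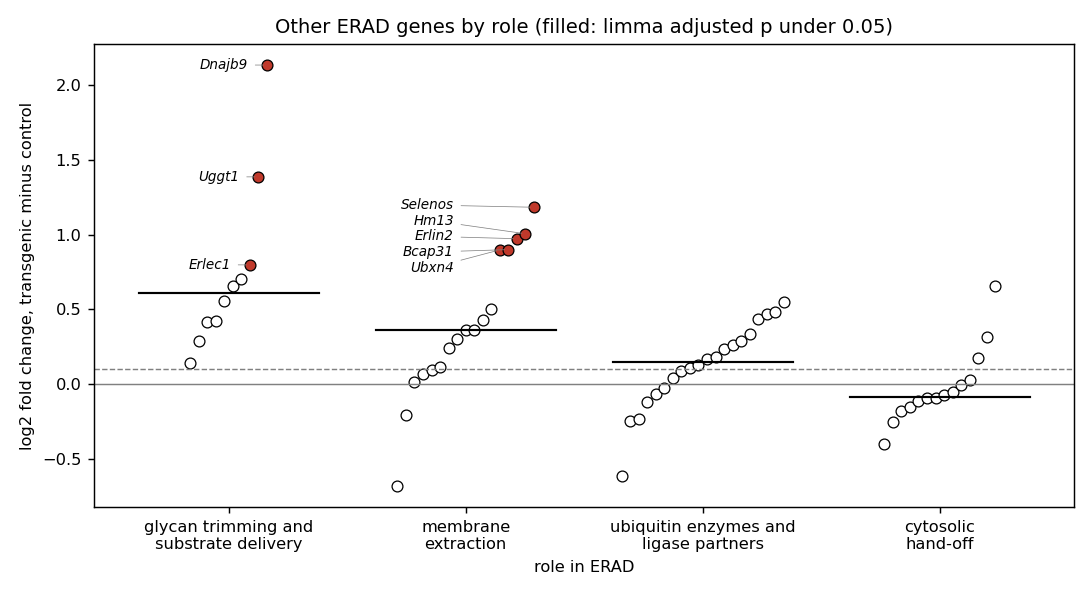
Log2 fold change, transgenic minus control, of 61 tested ERAD genes other than the 10 members, by role, with a solid bar at the median of each role and a dashed line at the median of all genes tested. Filled points, 3 in glycan trimming and delivery and 5 in membrane extraction, had a limma adjusted p under 0.05, and the roles of ubiquitin enzymes and cytosolic hand-off hold none.

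Of the 8 other ERAD genes that rose, 5 kept their call with median-of-ratios factors and 1 without a filter. Of all genes 5% and 0.76% were called higher in these 2 settings. With any 1 of the 4 libraries left out, fewer of the 8 were called, and fewer of all genes were called higher too. The shares of all genes in these fits are given above with the members. Erlec1, Erlin2, Bcap31 and Ubxn4 were called in none of these 4 fits.

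Among 10 sensors and factors of the unfolded protein response 8 passed the filter and 1 rose, where 6.25% of all genes rose. The count was also 1 with median-of-ratios factors and by limma-voom, where 5% and 5.38% of all genes were called higher. Eif2ak3, a sensor, passed the filter only through its transgenic values. Without Thbs1 in the library totals 7 were called, where 14.6% of all genes were called higher. At an unadjusted p under 0.05, 7 were higher, against 20.4% of all genes. All 10 had both transgenic values above both controls, as did 38.4% of all genes tested. The gene called was Atf6, the ER-anchored transcription factor, with 6.22 and 5.72 RPKM in transgenic libraries and 2.99 and 2.52 RPKM in control libraries (log2 fold change 0.89, SE 0.15, limma adjusted p = 0.0334). It was not called when any one library was left out, with adjusted p of 0.0621 to 0.138. Xbp1, whose mRNA is spliced by the sensor Ern1, had 13.4 and 11.1 RPKM in transgenic libraries and 8.75 and 7.96 RPKM in control libraries (log2 fold change 0.50, limma adjusted p = 0.124), and spliced and unspliced forms are not separated in these values. Atf4, a factor controlled largely at translation, had the lowest log2 fold change of the 8, 0.24 (limma adjusted p = 0.391).

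The 5 tested genes outside these lists with profiles most like the median of the members were Bet1l, Slc39a7, Canx, Sat1 and Csrp1. Likeness was the Euclidean distance of log2(RPKM + 1) values, centred on the control mean, over 4 libraries, and the distances were 0.0651 to 0.13. Canx, the ER chaperone calnexin, had 13.6 and 12.02 RPKM in transgenic libraries and 5.51 and 4.56 RPKM in control libraries. With 4 libraries in 2 groups such likeness mostly reflects a similar fold change, and the log2 fold changes of the 5 genes were 1.2 to 1.29.

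**Figure D5:**
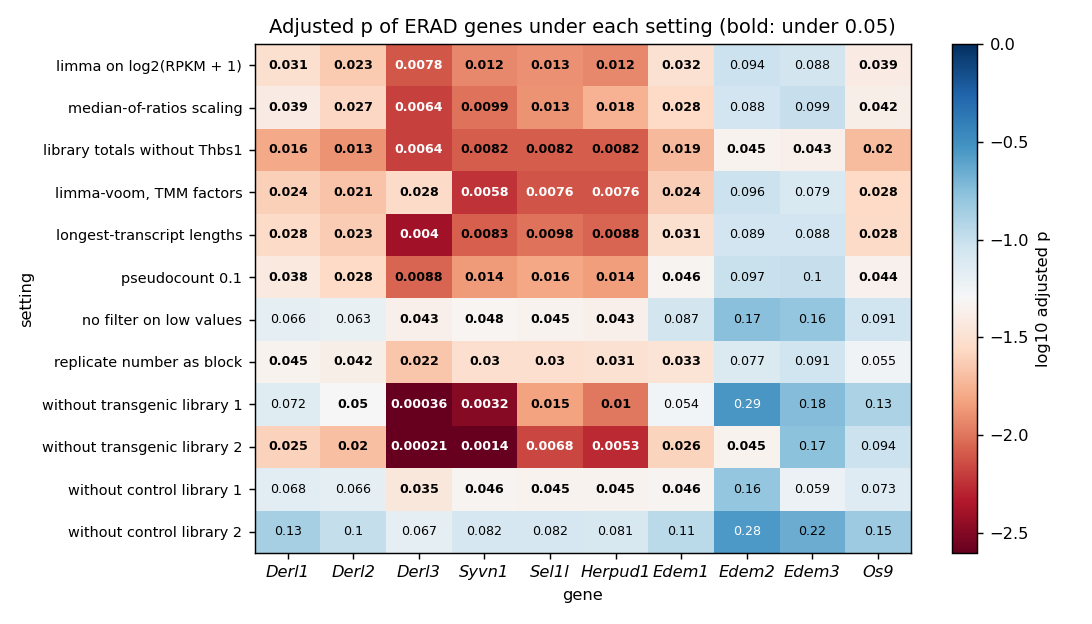
Benjamini-Hochberg adjusted p of each ERAD gene (columns) under each setting (rows), coloured on a log10 scale, with values under 0.05 in bold. Derl3, Syvn1, Sel1l and Herpud1 stay under 0.05 in each row except the fit without control library 2, while Edem2 and Edem3 stay above it in most rows.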

How the data were processed

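Total RNA of quadriceps muscle was sequenced in 2 libraries per group, and groups were taken from the sample titles. Per the submitters' processing notes bcl2fastq, TopHat and edgeR were used with the mouse build mm10, without versions. The authors deposited RPKM per library. They also deposited base means, which are signal values (reads over a size factor, averaged), the ratio of control to transgenic base mean, and p-values with adjusted p-values. The deposited list of significant genes repeats this table and was not used here.

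RPKM and base means together give whole reads for every value, within 1e-06 of a read, and these reads gave the depth. Date-like symbols were restored from Entrez identifiers for 27 genes. Of the genes, 10015 reached 1 RPKM in 2 or more libraries. These entered limma 3.58.1 (R 4.3.3) on log2(RPKM + 1), with a mean-variance trend, two-sided, without covariates. Benjamini-Hochberg adjustment ran over all genes tested. A log2 fold change on this scale understates changes of low genes, and folds in RPKM are ratios of group means. Named genes are the 10 members, Thbs1, listed genes past the test or at the ends of each role, and 5 nearest profiles, while marker, overlap and other genes were added. The members, lists and tests were chosen with earlier results of these data known. GENCODE M21 (GRCm38, which mm10 names) gave positions and transcript lengths. Alternatives were other scalings, pseudocount, filter, threshold, limma-voom, a block, each library left out and, chosen after seeing the data, other gene lengths. Python 3.11.15, pandas 2.3.3, numpy 2.4.6, scipy 1.17.1 and matplotlib 3.10.9 were used.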

Additional observations from a re-analysis of the deposited data

How the results depend on the processing

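Over 12 alternatives, 95 of 120 member log2 fold changes kept both direction and side of the threshold, 20 lost their call, 5 gained one and 0 turned direction. With no overlap between groups, direction could turn only under another scaling of the libraries, so the 0 adds nothing for the other settings. The number of members called higher, 8 in the report, was 4 with no filter on low values (Derl3, Syvn1, Sel1l and Herpud1), and 0 to 8 when each library was left out. It was 10 without Thbs1 in the library totals and at an adjusted p under 0.1, and 7 with the replicate number as a block, where Os9 lost its call. The number of other ERAD genes called higher, 8 in the report, was 1 with no filter and 5 with median-of-ratios factors (0.76% and 5% of all genes). It was 5 with the block (4.96%), 17 without Thbs1 in the totals (14.6%) and 12 at an adjusted p under 0.1 (13%). In each fit that left out a library it was lower than 8. The number of changed genes, 748 in the main test, was 146 with no filter, 1561 without Thbs1 in the totals, 1705 at an adjusted p under 0.1 and 1 to 651 with each library left out, and 561 with the block. Same-numbered libraries share only a number, and their deviations from the group means correlated at 0.0742. With 2 libraries per group, the causes of these changes were not tested. Depth limits mainly Derl3 in control libraries, with 2 and 0 reads.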
